A study of Homo sapiens with 9 samples.

Results

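Replication histone genes encode the bulk histones that are made while DNA is copied. In this H2A ChIP-seq table they were the genes whose symbols follow the pattern HIST1 to HIST4 with class H1, H2A, H2B, H3 or H4, and 56 of 20318 protein-coding genes met it. They comprised 6 linker histone H1 genes, 13 H2A genes, 15 H2B genes, 12 H3 genes and 10 H4 genes. The pattern goes by symbol only and also took in testis histone genes such as HIST1H1T and HIST3H3, so not every member encodes a bulk histone. The cells were T47D-MTVL, a hormone-responsive human breast cancer line with an integrated reporter under the MMTV (mouse mammary tumour virus) promoter. Because ChIP gives no expression, the label of the cells could not be set against marker genes, and no input library was analysed here. Every culture was kept without serum and then left unstimulated (0 min) or given R5020, a synthetic progestin, at 10 nM. H2A, a core histone protein, was read at 0, 30 and 60 min. HP1γ, a heterochromatin protein, LSD1, a histone demethylase, and BPTF, a subunit of the chromatin remodeller NURF, were read at 0 and 30 min. These 9 libraries made 9 groups of 1, so no comparison has a replicate check, no p-value is given, and intervals below cover counting error only. The 3 H2A libraries held 141 M, 169 M and 133 M reads in order of time, a depth worked out from the size of 1 read in the deposited RPKM (reads per kilobase of gene and M reads).

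Core histones form the octamer around which DNA wraps in a nucleosome, and H1 binds the linker DNA outside it. Most replication histone genes are short, lack introns and are transcribed in S phase, and their mRNAs end in a conserved stem-loop in place of a poly(A) tail. H2A and H2B genes often stand head to head and share the DNA between their starts. The antibody against H2A reads nucleosomes over any gene, so the signal over an H2A gene below is the protein's occupancy of that gene and not its expression.

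The genes lay in 7 groups when gaps of up to 200 kb were bridged, all given on GRCh37. The largest group, HIST1H1A to HIST1H4H, held 25 genes over 268.5 kb at chr6:26017260-26285762. A second group on chromosome 6, HIST1H2BL to HIST1H2BO, held 15 genes over 86.4 kb at chr6:27775257-27861669, and 2 further pairs on that chromosome were HIST1H2AA with HIST1H2BA and HIST1H2BK with HIST1H2AH. The HIST2 group had 8 genes over 94.4 kb at chr1:149765021-149859466. The HIST3 group had 3 genes at chr1:228612546-228646259, and HIST4H4 stood alone at chr12:14921873-14923210.

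The stem-loop letters are shown because they tie the 56 genes together and mark where the compact transcription unit ends. The 16-letter pattern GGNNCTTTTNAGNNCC, searched on the gene's own strand, was found within 1000 bases after the gene start in 52 of the 56 genes (92.9%), against 72 of 20305 genes in all (0.355%). Stem bases are in capitals and the loop is in lower case.
HIST1H2AE: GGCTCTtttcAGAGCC
HIST1H1A: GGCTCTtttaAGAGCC
HIST2H2AC: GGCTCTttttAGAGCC
HIST1H2AK: GGTTCTtttcAGAGCC
HIST1H4A: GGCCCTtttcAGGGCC
HIST1H4K: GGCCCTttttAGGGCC
All 8 H4 genes with a match had the GGCCCT stem, and no gene of another class did. HIST1H2BI, HIST1H3E, HIST1H4L and HIST4H4 had no match to these letters in that window. HIST1H3J and HIST1H2AM, whose models overlap, were matched at the same site (chr6:27860482-27860497), so the 52 genes do not all have separate sites. HIST1H3D had 2 matches, and the first (chr6:26199017-26199032) lay beside H2AC7, an H2A gene that its model overlaps. That site therefore cannot be given to the H3 gene alone. In most compact genes the annotated end lay about 5 bases after the stem-loop, as in HIST1H1A. In some gene models it lay far beyond: 14432 bases for HIST1H2AC, 12747 for HIST1H2BD, 16604 for HIST1H2BN and 18419 for HIST2H2BF. Values for those genes therefore cover mostly sequence past the compact unit.

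Promoters are shown for HIST1H3H, which had the lowest H2A ratio at 30 min with a pseudocount of 0.05 RPKM, for HIST1H2BI, which had the largest increase among the H2B genes, and for HIST1H4J, an H4 gene. They are RefSeq sequences on GRCh38.p14, from 250 bases before to 50 after the start, and 48 of the 56 genes matched an entry. Capitals mark TATAAA (the TATA box), CCAAT (the CCAAT box) and ATTTGCAT (the octamer element bound by OCT1), on either strand.
HIST1H3H, chr6:27809801-27810100, plus strand: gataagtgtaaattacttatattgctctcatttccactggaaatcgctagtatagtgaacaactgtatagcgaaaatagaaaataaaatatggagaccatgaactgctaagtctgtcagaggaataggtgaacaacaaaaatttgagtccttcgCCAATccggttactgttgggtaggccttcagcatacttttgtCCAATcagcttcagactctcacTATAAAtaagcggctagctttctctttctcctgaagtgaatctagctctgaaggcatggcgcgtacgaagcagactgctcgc
HIST1H2BI, chr6:26272681-26272980, plus strand: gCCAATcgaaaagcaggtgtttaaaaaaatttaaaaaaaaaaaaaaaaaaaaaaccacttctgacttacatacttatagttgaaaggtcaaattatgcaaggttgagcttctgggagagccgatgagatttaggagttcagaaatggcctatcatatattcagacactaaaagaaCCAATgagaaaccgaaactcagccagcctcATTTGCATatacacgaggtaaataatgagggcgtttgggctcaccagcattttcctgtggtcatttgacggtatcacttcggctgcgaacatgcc
HIST1H4J, chr6:27823842-27824141, plus strand: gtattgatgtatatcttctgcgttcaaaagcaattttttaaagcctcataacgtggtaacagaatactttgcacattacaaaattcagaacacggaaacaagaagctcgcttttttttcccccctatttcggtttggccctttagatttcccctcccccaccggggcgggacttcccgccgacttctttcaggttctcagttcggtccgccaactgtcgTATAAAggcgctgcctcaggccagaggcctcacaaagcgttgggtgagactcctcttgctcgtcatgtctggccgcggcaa
CCAAT was present in the windows of all 6 H1, 12 H2A, 13 H2B and 9 H3 genes that matched, and in 1 of 8 H4 genes (12.5%), against 35.7% of all 27305 promoter windows. TATAAA was present in 32 of 48 (66.7%, against 12% of all windows). ATTTGCAT was found in 8 of 12 H2A and 9 of 13 H2B genes, in 1 of 9 H3 genes and in no H1 or H4 gene, against 1.8% of all windows. The 1 H3 gene was HIST1H3D, whose model starts beside the H2A gene H2AC7 that it overlaps, so its window cannot be told from that gene's. The head-to-head H2A and H2B genes share part of these windows. None of the 3 motifs contains another, and a match is a description of the sequence only.

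H2A levels over the compact genes were modest and followed how much of each gene is unique in the genome. Whole reads could be recovered for 44 genes with models under 1 kb, and only these were compared in level. Their median was 0.472 RPKM at 0 min, 0.428 at 30 min and 0.479 at 60 min. Other genes under 1 kb with 1 annotated transcript (368 genes) had medians of 0.392, 0.329 and 0.379 RPKM.

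**Figure D1:**
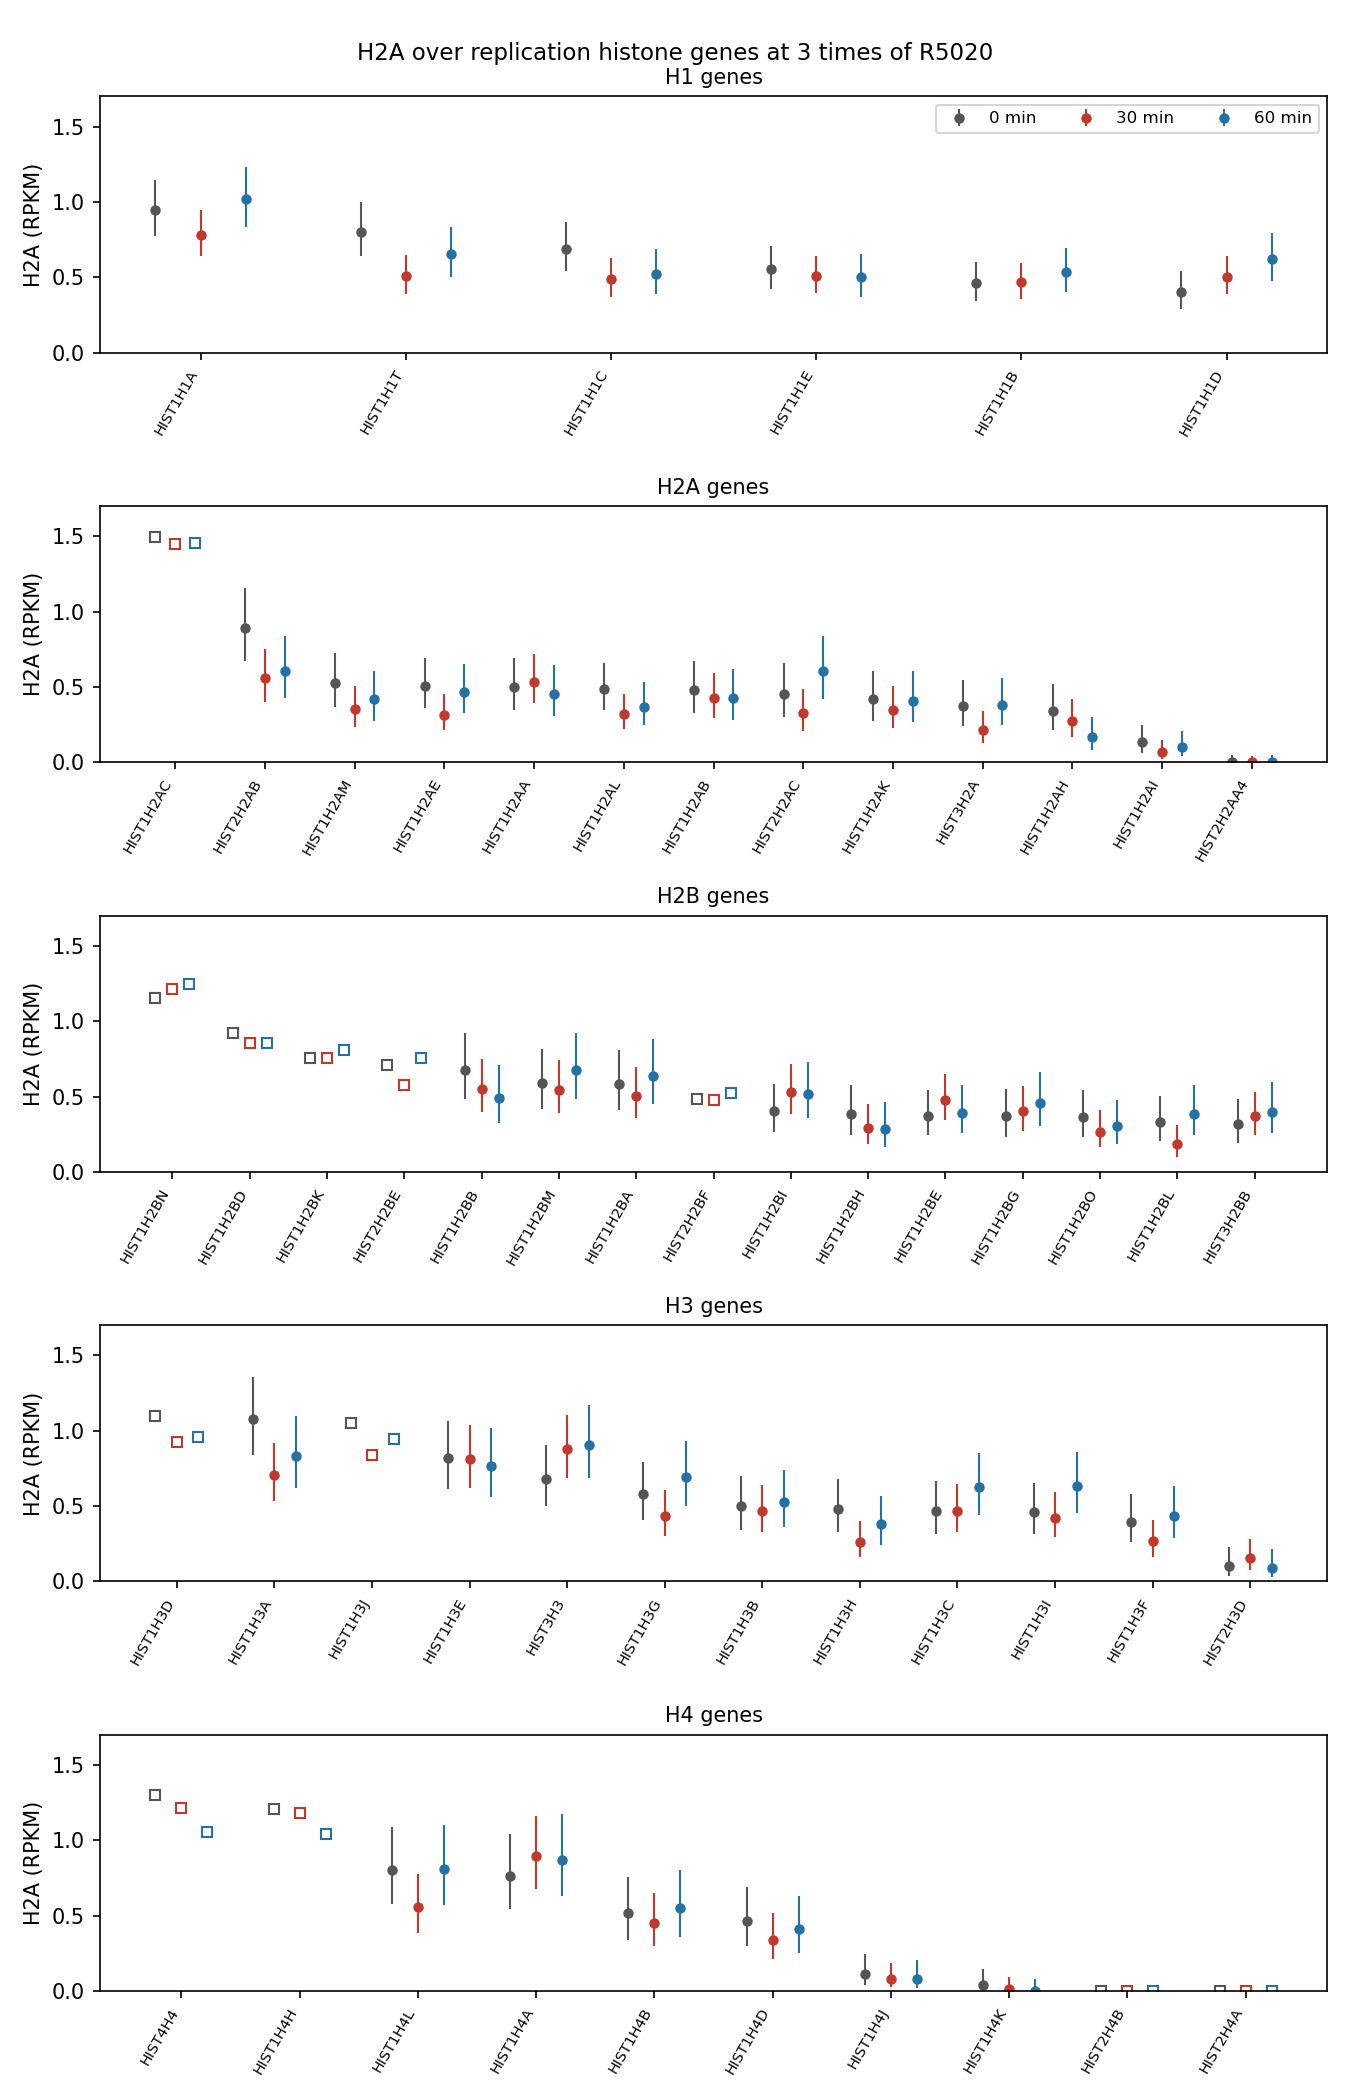
H2A in RPKM over each of the 56 genes at 0 min (grey), 30 min (red) and 60 min (blue), by histone class and ordered by the 0 min value. Filled points with bars are genes with recovered whole reads and their exact Poisson 95% intervals, open squares are the other genes, and the points of a gene overlap in most cases, with HIST2H2AA4, HIST2H4A and HIST2H4B at 0.

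Among the compact genes, HIST1H3A, a core H3 gene, had the highest level at 0 min, with 71 reads (1.077 RPKM), then 56 reads at 30 min (0.710) and 52 at 60 min (0.835). HIST1H1A, the gene of linker histone H1.1, followed with 104, 103 and 106 reads (0.947, 0.783 and 1.021 RPKM). HIST2H2AB had 56, 42 and 36 reads (0.890, 0.557 and 0.605 RPKM). HIST1H3E, whose transcript number was not matched, followed with 53, 63 and 47 reads (0.817 RPKM at 0 min). Next were HIST1H1T, a testis linker histone gene, at 0.804 RPKM and HIST1H4L at 0.802. The counting intervals of all 6 overlapped and no gene was tested against another, so neighbours in this order are not called different. HIST1H3D stood at 1.096 RPKM at 0 min, but its 2453-base model overlaps an H2A gene.

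The low end held genes with near-identical copies. The share of a gene's 32-base words that occur once in the genome was at least 80% in 34 of the 44 compact genes, whose median was 0.502 RPKM at 0 min. It was between 10% and 80% in 6 genes (median 0.348 RPKM) and under 10% in 4 genes (median 0.072 RPKM). HIST2H3D had 6, 11 and 5 reads, HIST1H4J had 6, 5 and 4, and HIST1H4K had 2, 1 and 0, with 7.6%, 7.6% and 7.7% unique words. HIST2H2AA4, HIST2H4A and HIST2H4B, which have no unique word, were listed at 0 in all 3 libraries. With no unique word, such a 0 sets no upper limit on occupancy there. The Spearman correlation of level with the share of unique words over the 44 genes was 0.71 at 0 min, 0.62 at 30 min and 0.70 at 60 min. How reads with several matches were treated is not given in the sources used here, and the part of sequence copies in the levels was not tested otherwise.

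**Figure D2:**
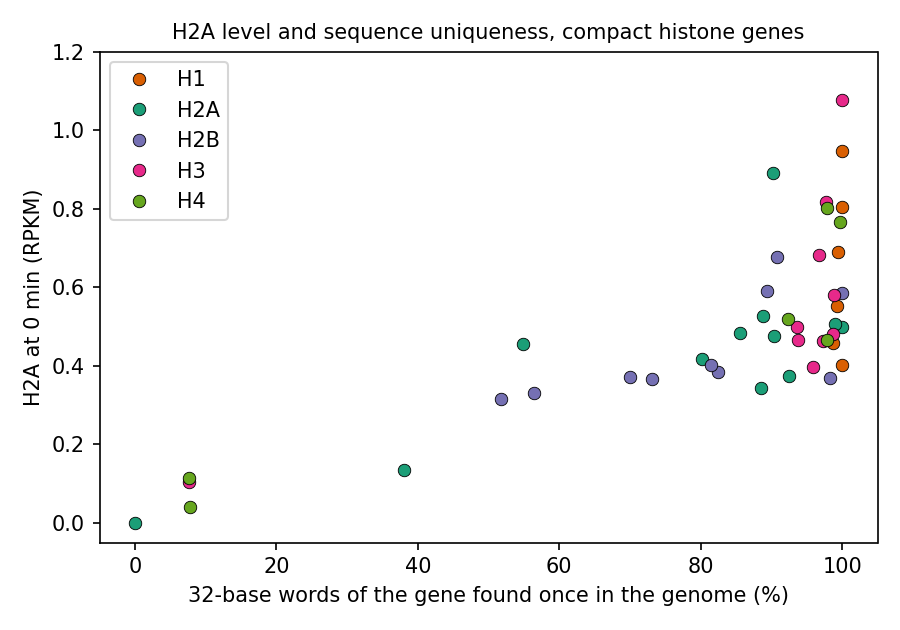
H2A at 0 min (RPKM) against the percent of a gene's 32-base words found once in the genome, for the 44 compact genes, coloured by class. The 4 genes under 10% have a median of 0.072 RPKM, and the 34 genes at 80% or more have a median of 0.502 RPKM.

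The comparison of 30 with 0 min asked how H2A over these genes stood soon after hormone. With a pseudocount of 0.05 RPKM and a filter at a mean of 0.1 RPKM, 51 genes could be compared. HIST1H4J, HIST1H4K, HIST2H2AA4, HIST2H4A and HIST2H4B fell below the filter. H2A read lower at 30 min over 38 of the 51 genes (71.3% of all genes tested read lower), with a median log2 ratio of -0.20 against -0.14 over all 19709 genes tested. Over all genes the log2 ratio followed GC content (Spearman -0.85 across genes, which are not independent replicates), while over the 51 histone genes the same correlation was -0.22. The median GC was 57.4% in the histone genes and 45.4% in all genes. Centred on the median of all genes, their median was -0.06, and with the GC trend taken off it was 0.01, with 24 genes lower and 27 higher. The part of GC content in the lower values was not tested beyond this.

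Past 0.5 on the log2 scale, 10 of the 51 genes were lower (19.6%) and 0 were higher. The background was 1.99% lower and 0.345% higher over all genes tested, but 18.1% lower and 4.76% higher among the 504 other genes under 1 kb, which carry similarly few reads. All 10 lower histone genes were among the 41 compact genes tested, and 0 were among the 10 with longer models. The comparison at like length is therefore 10 of 41 against 18.1%, and the difference was not tested. All 10 stayed below 0 with the GC trend taken off, none of them past 0.5, and 7 other histone genes then stood above 0.5. With the trend off, 50 of all 19709 genes tested were lower and 72 higher past 0.5. That share was not computed for other short genes, so the 7 are not set apart from them.

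HIST1H3H, a core H3 gene in the second chromosome 6 group, had the lowest ratio at 30 min at this pseudocount. Its reads were 32 at 0 min, 21 at 30 min and 24 at 60 min, and its log2 ratio at 30 min was -0.76. HIST1H2BL, an H2B gene, had 21, 14 and 23 reads and a ratio of -0.70. Both were lowest at 30 min, and at 60 min HIST1H2BL was back above its 0 min level.

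H2A genes made up 6 of the 10. HIST3H2A, which encodes an H2A of the small chromosome 1 group, had 26, 18 and 25 reads and a ratio of -0.67. HIST2H2AB, whose body overlaps BOLA1, had 56, 42 and 36 reads and a ratio of -0.63. HIST1H2AE had 39, 29 and 34 reads and a ratio of -0.61. Per library read, all 3 were lowest at 30 min. HIST1H2AI, with 10, 6 and 7 reads, stood at -0.65, and with a pseudocount of 0.01 it was the lower one at -0.90 against -0.84 for HIST1H3H. HIST1H2AL stood at -0.53 and HIST1H2AM at -0.51. The last of these overlaps the model of HIST1H3J, and the counting used both strands, so their reads cannot be told apart.

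The other genes past 0.5 were HIST1H1T, with 82, 62 and 63 reads and a ratio of -0.61, and HIST1H3A at -0.57. The exact 95% interval of the read ratio excluded 0 in 4 of the 43 compact genes with reads: HIST1H3H (-1.74 to -0.03), HIST2H2AB (-1.29 to -0.07), HIST1H1T (-1.16 to -0.17) and HIST1H3A (-1.13 to -0.08). These same 4 genes were past 2 counting standard errors. In the other 39 the difference at 30 min was not detectable at this depth. These intervals are set against 0, while the median log2 ratio over all genes tested was -0.14. How many other short genes have such an interval was not computed, so the 4 are not set apart from them.

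At the other end, HIST2H3D stood at 0.44 from 6 and 11 reads, and HIST1H2BI at 0.37 from 27 and 43 reads. HIST3H3, the gene of a testis H3, had 46, 71 and 58 reads and a ratio of 0.34. HIST1H2BE stood at 0.32 (26, 40 and 26 reads), and HIST1H1D, which encodes linker histone H1.3, at 0.29. The intervals of all 5 included 0.

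**Figure D3:**
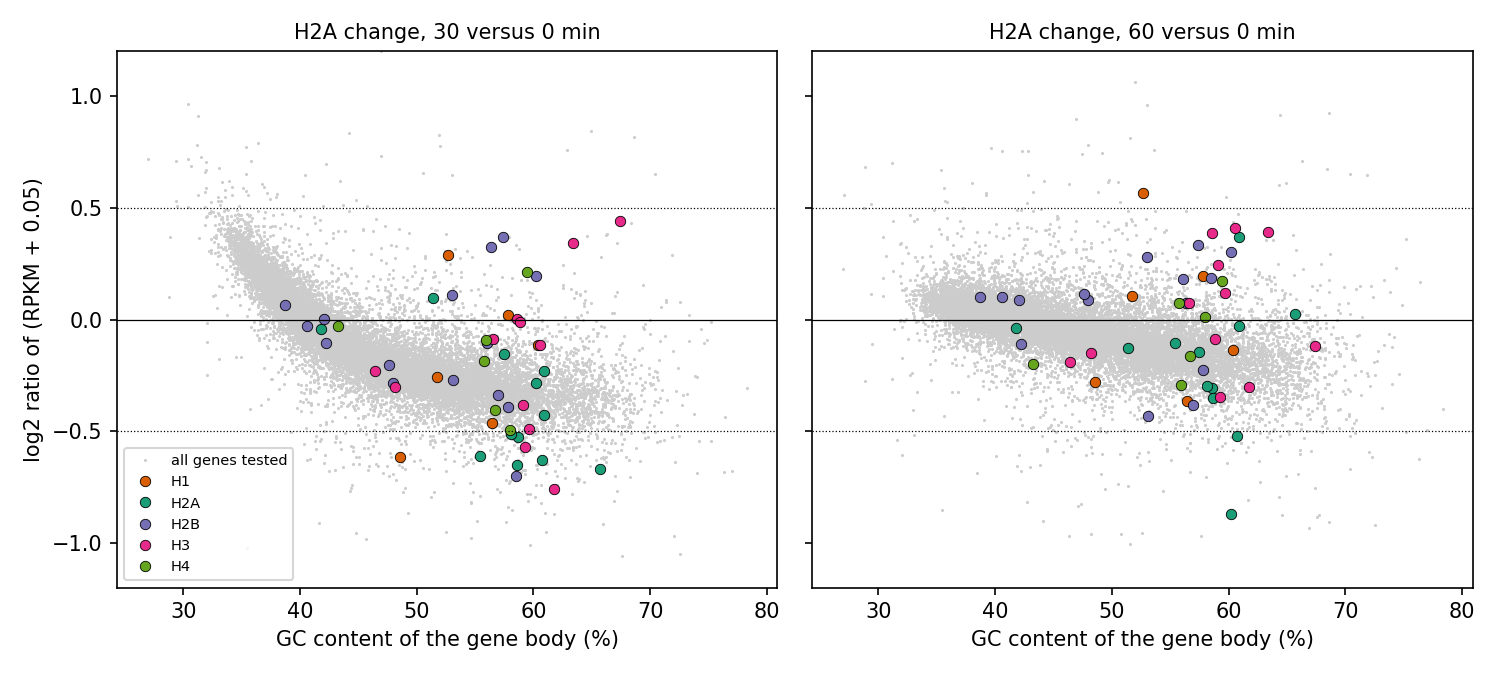
Log2 ratio of H2A (RPKM plus 0.05) at 30 and at 60 min against 0 min, plotted against gene GC content, with all genes tested in grey (a few lie outside the axis range) and the 51 histone genes coloured by class. At 30 min the histone genes scatter around the downward trend of the other genes, with a median of -0.20, which is 0.01 once the trend is taken off, and dotted lines mark 0.5 either way.

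Pooling reads over the 44 compact genes lowers the counting error. The pooled level was 0.502 RPKM at 0 min from 1546 reads, 0.426 at 30 min from 1569 reads in a deeper library, and 0.498 at 60 min from 1448 reads. The log2 ratio was -0.24 (95% -0.34 to -0.14) at 30 min and -0.01 (-0.12 to 0.09) at 60 min. Against the pooled reads of 18 non-histone genes between them, which have a lower median GC of 43.8%, the ratio at 30 min was -0.17. The median over all genes tested was -0.14 at 30 min. Gene by gene, the 41 compact genes tested had a median of -0.26, or 0.01 with the GC trend off. The pooled ratios were not set against genes of like GC, so they give no fall particular to histone genes.

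By class, H2A genes had the lowest pooled ratio at 30 min: 350 and 306 reads gave -0.45 (-0.68 to -0.23). With H1 genes it was -0.24 (-0.44 to -0.04), with H4 genes -0.21 (-0.56 to 0.14), with H3 genes -0.19 (-0.40 to 0.02) and with H2B genes -0.08 (-0.32 to 0.16). The interval of the H2A genes overlapped those of the other 4 classes, which does not decide whether they differ. No class was tested against another and each time has 1 library, so no class is called different. Gene by gene, 11 of 12 H2A genes read lower (median -0.47), 10 of them after centring (median -0.33) and 7 with the GC trend off (median -0.15). H2B genes gave 9 of 15 lower (median -0.10), and their median turned to 0.04 after centring and 0.01 with the GC trend off. With that trend off, the medians of the H1, H3 and H4 genes were 0.11, 0.09 and 0.09. At 60 min the pooled ratio of the H2A genes was -0.22 (-0.45 to 0.01), and those of the other classes lay between 0.01 and 0.09.

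**Figure D4:**
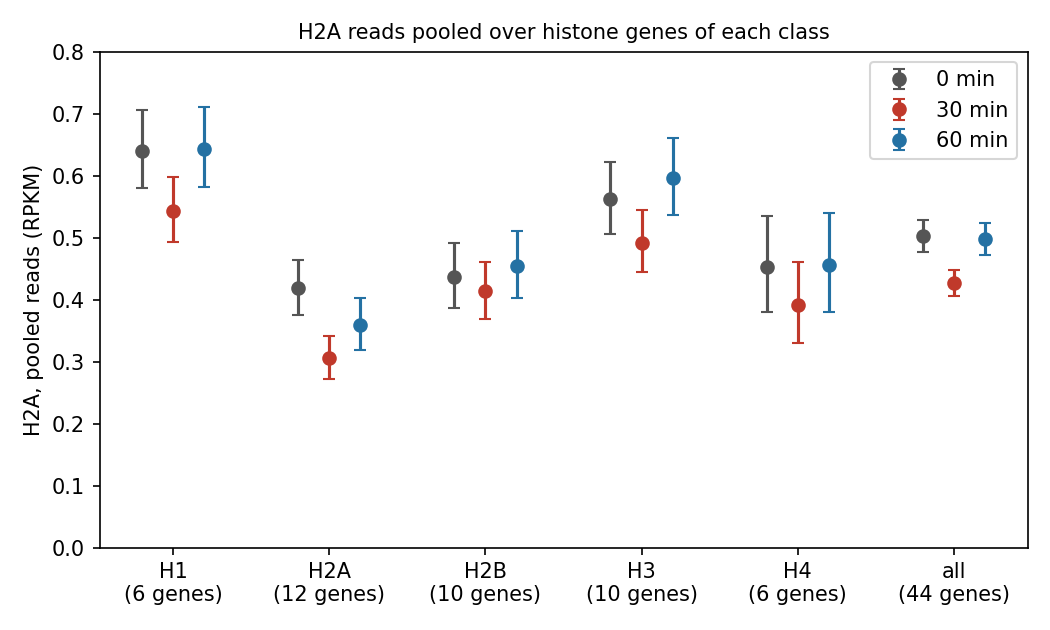
Pooled H2A reads as RPKM for each histone class and for all 44 compact genes at 0, 30 and 60 min, with exact Poisson 95% intervals. The 30 min point is the lowest of each set, from 0.305 RPKM for H2A genes to 0.543 for H1 genes, and the 60 min point of the H2A genes (0.359) lies below their 0 min point (0.418).

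Head-to-head partners share 189 to 346 bases between their starts, and their ratios at 30 min lay close together in some pairs and further apart in others. HIST1H2BL and HIST1H2AI, 189 bases apart, stood at -0.70 and -0.65, and HIST1H2BO and HIST1H2AM at -0.39 and -0.51. HIST3H2A stood at -0.67 beside HIST3H2BB at 0.20, and HIST1H2AE at -0.61 beside HIST1H2BG at 0.11. HIST2H2BE and HIST2H2AC stood at -0.28 and -0.43, HIST1H2AK and HIST1H2BN at -0.23 and 0.07, and HIST1H2AA and HIST1H2BA at 0.09 and -0.20. HIST1H2BK and HIST1H2AH stood at 0.00 and -0.28. Where both partners had whole reads their counting intervals overlapped. Partners were not tested against each other, so no pair is called different.

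By genomic group, the pooled ratio at 30 min was -0.21 (-0.34 to -0.08) over HIST1H1A to HIST1H4H and -0.39 (-0.61 to -0.17) over HIST1H2BL to HIST1H2BO. Over the HIST2 group it was -0.49 (-0.94 to -0.03), and over the HIST3 group 0.09 (-0.32 to 0.50). The intervals overlapped, which does not decide whether the groups differ. No group was tested against another and each time has 1 library, so no group is called different. With the GC trend off, the medians of the genes tested in these groups were 0.01, -0.09, -0.07 and 0.52, in the same order.

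At 60 against 0 min the genes were evenly split, with 26 lower and 25 higher (61.2% of all genes read lower). The median log2 ratio was -0.03, the same as over all genes tested, and it was 0.00 after centring and 0.08 with the GC trend off. Past 0.5, HIST1H2AH (22, 21 and 10 reads, -0.87) and HIST2H2AB (-0.52) were lower and HIST1H1D was higher (44, 66 and 64 reads, 0.56). The background was 0.639% lower and 0.249% higher over all genes, and 9.13% and 7.14% among other genes under 1 kb. The histone genes past 0.5 were all among the 41 compact genes tested, the set of like length. Only for HIST1H1D, 1 of the 43 compact genes with reads, did the read interval exclude 0 (0.05 to 1.21). Its ratio was 0.68 with the GC trend off. How many other short genes have such an interval was not computed, so this gene is not called different. Next lowest were HIST1H2BB (-0.43), HIST1H2BH (-0.38) and HIST1H1C (-0.37). HIST1H3I (0.41), HIST3H3 (0.39), HIST1H3C (0.39) and HIST2H2AC (0.37) were next highest. The 60 min comparison uses the same 0 min library as the 30 min one.

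Between 30 and 60 min, 38 of 51 genes read higher (71.5% of all genes) and 13 lower (28.3%). The median was 0.17 against 0.09 over all genes, and 0.02 with the GC trend off. Past 0.5, 8 genes were higher and 2 lower, against 0.756% and 0.294% of all genes and 12.7% and 6.35% of other genes under 1 kb. HIST1H2BL (0.88), HIST2H2AC (0.80), HIST3H2A (0.69), HIST1H3G (0.62) and HIST1H3F (0.61) were the highest of the 8, and HIST1H3I, HIST1H2AE and HIST1H4L made up the rest. HIST1H2AH (-0.59) and HIST2H3D (-0.56) were the 2 lower ones. The 8 and the 2 were all among the 41 compact genes tested, the set of like length. In the HIST1H2BL to HIST1H2BO group, 1 of the 7 groups, all 13 genes tested read higher. All 13 also did so with the GC trend off, against 10168 of all 19709 genes. The 30 min library is the reference here, and 11 of these 13 genes read lower in it than at 0 min. HIST1H2AM and HIST1H3J overlap, so the 13 are not independent.

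Genes that work with the replication histones gave the setting. Replication-independent histone variants, which are expressed outside S phase too, read lower at 30 min in 13 of 16 cases with a median of -0.19, or 0.05 with the GC trend off. H2AFX, the gene of the DNA damage variant H2A.X, was lowest with 1.120, 0.782 and 0.760 RPKM at the 3 times (-0.49), and H1F0 was highest (0.08). Genes of histone mRNA synthesis and 3-prime processing read lower in 18 of 23 cases (median -0.10). Of these GAPDH, a glycolytic enzyme also known from the OCA-S coactivator of H2B genes, was at 2.495, 1.473 and 1.858 RPKM (-0.74), and CCNE2, a cyclin of S phase entry, at 0.15. Histone chaperones and importins read lower in 20 of 25 cases (median -0.15), from IPO4 (-0.46) to NAP1L1 (0.20). Apart from GAPDH at 30 min, the only gene of the 3 lists past 0.5 against 0 min was H2AFX at 60 min (-0.53). With the GC trend off, the processing and chaperone medians were -0.00 and -0.01.

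Peaks of the chromatin proteins were counted over each gene with a flank of 5 kb either way, and a peak near several genes was counted once. Beside each share stand 2 backgrounds: all genes, many of which are long, and the 1594 other genes of at most 2 kb. HP1γ at 0 min had 17 distinct peaks at 21 of 56 genes (37.5%, Wilson 95% 26 to 50.6%), against 29.9% of all genes and 11.3% of short genes. At 30 min it had 9 peaks at 18 genes (32.1%, 21.4 to 45.2%), against 25.7% and 7.97%. LSD1 at 0 min had 15 peaks at 24 genes (42.9%, 30.8 to 55.9%), against 26.1% and 10.1%. At 30 min LSD1 had 6 peaks at 8 genes (14.3%, 7.42 to 25.7%), against 24.5% and 7.09%. Neighbouring histone genes share windows, so these intervals treat genes as independent when they are not. The lists themselves were shorter at 30 min, with 23836 against 31845 HP1γ peaks and 20495 against 34990 LSD1 peaks. The depth of those libraries is unknown, so how far it set the fewer LSD1 peaks at 30 min was not tested.

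No 0 min peak near the histone genes overlapped a 30 min peak of the same protein, for HP1γ (0 of 17, Wilson upper bound 18.4%) or for LSD1 (0 of 15, 20.4%). Such overlap was rare in the whole lists too, at 4.31% of 31845 HP1γ peaks and 3.71% of 34990 LSD1 peaks, so the 0 is not set apart from them. In the wider windows, 7 genes had an HP1γ peak at both times and 4 had an LSD1 peak at both. The 7 include HIST2H2BE, HIST2H2AC and HIST2H2AB, which share the same peaks. The shares over all genes with a peak at both times were not computed. In all, 42 of 56 genes (75%) had an HP1γ or LSD1 peak at either time, against 51.2% of all genes and 25.5% of short genes. With the BPTF lists it was 44 genes (78.6%), against 52.8% and 26.9%. The 12 genes with no peak of any list were HIST4H4, HIST1H2AA, HIST1H2BA, HIST1H1C, HIST1H3D, HIST1H1D, HIST1H3G, HIST1H2BK, HIST1H2AH, HIST1H2BL, HIST1H2AI and HIST1H2AK.

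Some peaks lay on annotated histone gene bodies, and the score given with them is the authors' own value per peak. An HP1γ peak at 0 min (chr1:149858726-149859531, score 51.22) covered parts of HIST2H2AC and HIST2H2AB. HIST1H2BM and HIST1H2BD also had a 0 min HP1γ peak on the body. At 30 min HP1γ peaks lay on HIST1H2BE, HIST1H2BD, HIST1H3J and HIST2H4B, and the one with the highest score (54.76, chr6:27840252-27840756) lay 153 bases from the nearest histone gene, within 5 kb of HIST1H1B, HIST1H3I and HIST1H4L. LSD1 peaks at 0 min lay on HIST1H2AC, HIST1H2AE and HIST1H2BN, and the highest score (57.26) was 4024 bases from HIST3H3. The only LSD1 peak on a gene body at 30 min was on HIST2H2BF. Some of these annotated bodies run on past the stem-loop. The peaks on HIST1H2AC, HIST1H2BD, HIST1H2BN, HIST2H4B and HIST2H2BF all lay past it, outside the compact unit. The peak on HIST1H3J (chr6:27858051-27858421) also lay past the stem-loop matched in its model (chr6:27860482-27860497). That site was matched for HIST1H2AM too, so this peak is not placed inside or outside a compact unit. For example, the LSD1 peak on HIST1H2AC lay at chr6:26138577-26139153, and the stem-loop at chr6:26124897-26124912.

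Peaks of different proteins coincided at a few places. At 0 min 4 of 17 HP1γ peaks overlapped LSD1 peaks (23.5%, Wilson 95% 9.56 to 47.3%), against 7.83% of all HP1γ peaks. They lay near HIST3H3, between HIST1H1A and HIST1H3A, beyond HIST1H2AE towards HIST1H3E, and near HIST1H4J and HIST1H4K. At 30 min 2 of 9 HP1γ peaks (22.2%, 6.32 to 54.7%), both near HIST1H1A, overlapped 1 LSD1 peak (chr6:26013767-26014255), against 3.08% of all HP1γ peaks.

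BPTF peaks came as lists of displaced and recruited sites. No displaced peak lay near a histone gene (0 of 56, Wilson upper bound 6.42%), against 9.15% of all genes and 1.57% of short genes. Recruited peaks numbered 4 at 7 genes (12.5%, 6.19 to 23.6%), against 5.3% of all genes and 0.816% of short genes. HIST3H2A and HIST3H2BB shared a recruited peak (chr1:228642855-228643564), and HIST2H4A had another (chr1:149809072-149809760). The remaining 2 lay at the start of the largest group. One (chr6:26019562-26020158) was between HIST1H1A and HIST1H3A and overlapped both the HP1γ peak (chr6:26019510-26019877, score 39.47) and the LSD1 peak (chr6:26019162-26019788, score 49.46) of the 0 min libraries. The other covered HIST1H4A, whose H2A reads were 40, 56 and 43.

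The sequence between HIST1H1A and HIST1H3A is shown because only there, near the histone genes, did listed peaks of all 3 proteins overlap in position. The HP1γ and LSD1 peaks are from 0 min, while the BPTF peak is from the hormone-recruited list. Neither HP1γ nor LSD1 had a peak there in its list after hormone, so presence at the same time is not shown. Whether those peaks were lost was not tested. Printed is the stretch common to the 3 peaks, on the plus strand of GRCh37, with the same 3 motifs in capitals on either strand. Whether the BPTF file counts positions from 0 or 1 is not given in the sources used here, so its edges may be off by 1 base.
Shared stretch, chr6:26019562-26019788: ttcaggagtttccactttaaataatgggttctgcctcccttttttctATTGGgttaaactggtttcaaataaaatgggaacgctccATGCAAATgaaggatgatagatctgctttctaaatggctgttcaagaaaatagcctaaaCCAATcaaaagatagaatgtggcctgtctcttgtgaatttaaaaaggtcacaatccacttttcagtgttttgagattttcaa
The 227-base shared stretch held CCAAT on both strands and ATTTGCAT on the minus strand.

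**Figure D5:**
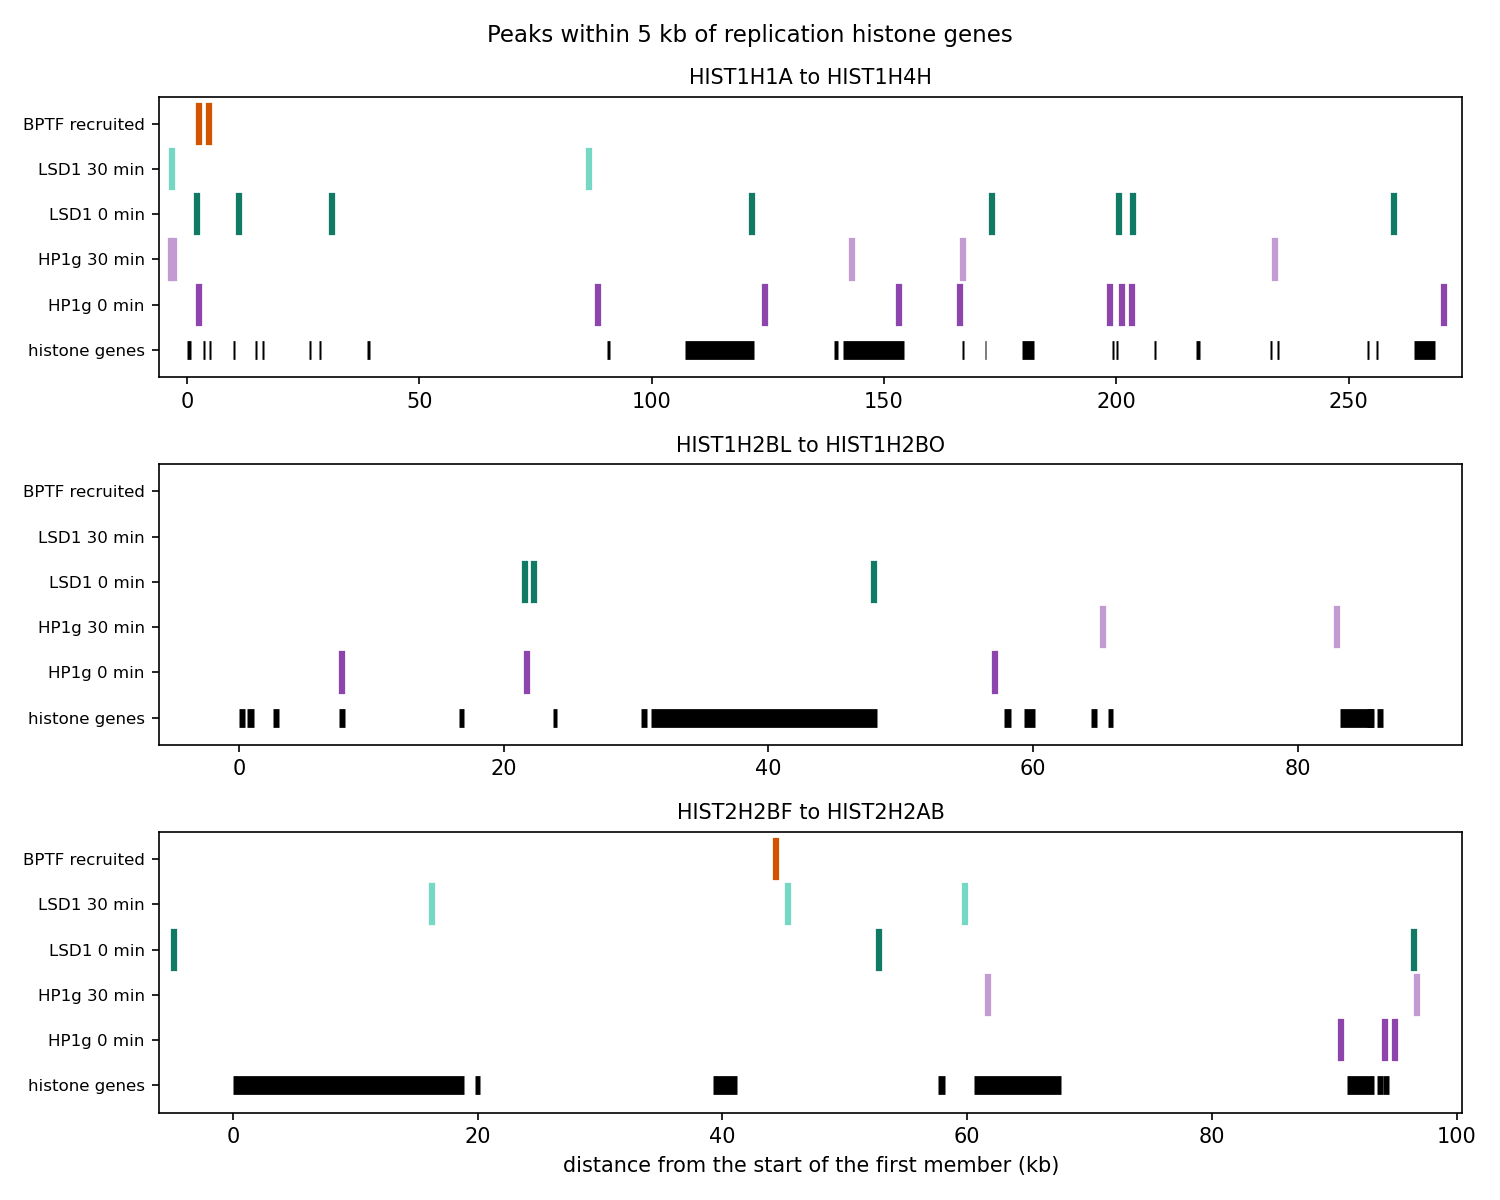
Positions of the HP1γ, LSD1 and recruited BPTF peaks (drawn at their centres, with a fixed width) above the histone genes (black, to scale) in the 3 largest groups, in kb from the first gene. Near 2 kb in the upper panel the 0 min HP1γ and LSD1 peaks and a recruited BPTF peak stand above one another, and no LSD1 peak of 30 min lies in the HIST1H2BL to HIST1H2BO group.

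Across chromosome 6 the whole span from the first to the last histone gene (2.135 Mb) was denser in HP1γ and LSD1 peaks than the chromosome as a whole. Other regions of like gene density were not set beside it, so the density is not given as particular to histone genes. HP1γ had 17.8 peaks per Mb at 0 min (exact Poisson 95% 12.6 to 24.4) and 13.1 at 30 min (8.71 to 19), against 5.13 and 4.38 over the whole chromosome. LSD1 had 13.6 (9.1 to 19.5) and 9.83 (6.09 to 15), against 4.7 and 4.03. Within the blocks of histone genes alone (0.3654 Mb), LSD1 had 11 peaks at 0 min and 1 at 30 min, or 30.1 per Mb (15 to 53.9) and 2.74 (0.0693 to 15.2), and HP1γ had 12 and 5, or 32.8 (17 to 57.4) and 13.7 (4.44 to 31.9). Of the 18 non-histone genes between the histone genes, 9 had an HP1γ peak at 0 min and 5 at 30 min, and 6 had an LSD1 peak at 0 min and 1 at 30 min. Among them BOLA1, next to HIST2H2AB, had 3 HP1γ peaks at 0 min, PRSS16, a thymic serine protease gene, had 2, and SLC17A4, a transporter gene, had 1 at 0 min and 2 at 30 min. Their H2A ratios at 30 min ran from -0.42 for ABT1 to 0.15 for SLC17A1, with a median of -0.11.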

How the data were processed

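H2A, HP1γ, LSD1 and BPTF ChIP-seq of 9 libraries was used. The tools were Bowtie 1.0.0 and HOMER 4.7.2 and the build hg19 (GRCh37), per the submitters' processing notes. The deposited H2A table gives RPKM per protein-coding gene, counted by HOMER on both strands over GENCODE version 18, per the file headers. RPKM rises with the number of annotated transcripts, so levels were compared only among genes whose values gave whole reads. Peaks of HP1γ and LSD1 come with a score as deposited by the authors, with a minimum of 30 and no definition in the sources used here. The BPTF lists give positions only.

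Reads were recovered from the steps in the RPKM: within 0.1 reads, 100.0%, 100.0% and 97.3% of 36, 39 and 37 low values came out whole (20% by chance). Log2 ratios used a pseudocount of 0.05 RPKM, which understates the change of low genes, and a filter at a mean of 0.1 RPKM (19709 genes). Intervals are exact conditional (Clopper-Pearson) for read ratios, exact Poisson for levels and Wilson for shares, at 95%. Genes were fitted as a whole table, with a lowess trend on GC content as an alternative (statsmodels 0.14.6, span 0.3). Calculations ran in Python 3.11.15 with scipy 1.17.1 and were tested on simulated data. A peak that touched the window by 1 bp or more was assigned to the gene.

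Named genes were those past 0.5, the 5 highest and lowest of each H2A comparison and of the 0 min levels, those past 2 counting standard errors, those with a peak, the extremes of each list, and non-histone genes with a peak. The genes and lists were chosen with earlier results of these data known.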

Additional observations from a re-analysis of the deposited data

How the results depend on the processing

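No paired analysis was possible because each group has 1 sample. The 6 settings that changed the sign of a main value are given below with those that moved one. For the named single genes, 543 values were recomputed: 12 changed sign, 9 of them with the GC trend off and 3 after centring, and none of the 12 had been past 0.5. Of the 22 values past 0.5, none stayed past it with a pseudocount of 0.5, 15 no longer were with the GC trend off and 9 after centring. The cause of the changes was not tested unless the setting itself tests fewer genes.

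At 30 against 0 min the median of -0.20 became -0.11 with a pseudocount of 0.5 and at a mean of at least 0.5 RPKM, -0.06 after centring and 0.01 with the GC trend off, and the share of genes lower (74.5%) became 54.9% and 47.1%. The 10 genes lower past 0.5 became 4 after centring, 0 with the GC trend off, 0 with a pseudocount of 0.5, 3 at a mean of at least 0.5 RPKM (27 genes) and 6 among 33 genes with 1 transcript and no overlap. The 0 genes higher became 2 after centring, 7 with the GC trend off and 1 with a pseudocount of 0.01. At 60 against 0 min the median of -0.03 became 0.01 at a mean of at least 0.5, 0.00 after centring, 0.08 with the GC trend off and 0.07 among those 33 genes. The 2 lower genes became 0 with a pseudocount of 0.5 and 1 under each of the stricter filter, centring, GC trend and transcript settings, and the 1 higher gene became 0 with a pseudocount of 0.5 and 5 with the GC trend off. At 60 against 30 min the median of 0.17 became 0.02 with the GC trend off, and the share of genes lower became 39.2%. The 2 lower genes became 0 with a pseudocount of 0.5 and at a mean of at least 0.5, and 1 among 43 genes with at least 80% unique words, a setting chosen after seeing the data. The 8 higher genes became 0 with a pseudocount of 0.5, 3 at a mean of at least 0.5, 5 after centring and 3 with the GC trend off. With that trend off, all 19709 genes gave 58 lower and 75 higher past 0.5 at 60 against 0 min. They gave 61 lower and 66 higher at 60 against 30 min. The pooled ratio at 60 min (-0.01) was 0.00, on the other side of 0, against the genes between.

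With a window of 1 kb, genes with a peak numbered 10 (HP1γ 0 min, 10 peaks), 8 (HP1γ 30 min), 7 (LSD1 0 min, 6 peaks), 2 (LSD1 30 min, 2 peaks) and 2 (recruited BPTF, 2 peaks). With 20 kb they numbered 39, 30, 44, 16 and 11. At a score of at least 50 they numbered 3 (2 peaks), 3 (1 peak), 4 (2 peaks) and 0 (0 peaks) for the HP1γ and LSD1 lists. Over histone gene blocks alone, peaks per Mb were 32.8 for HP1γ at 0 min, 30.1 for LSD1 at 0 min and 2.74 for LSD1 at 30 min.

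Read number limits single genes: the compact histone genes held from 0 to 106 reads per library, and those at the low end also have few unique words.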

Other observations

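The H2A table lists a further 12 histone genes that carry no symbol, named here by overlap on the same strand with version 44 of the GENCODE annotation. Reads and counting intervals are not given for these 12, so none of their ratios is called a difference. H4C3 had the largest ratio at 60 min among them, with 0.257, 0.301 and 0.490 RPKM at the 3 times and log2 ratios of 0.19 at 30 min and 0.81 at 60 min. H2BC11, whose model runs over several kilobases, had 1.790, 1.631 and 1.805 RPKM, and H2BC4 had 0.699, 0.811 and 0.801. H4C7, with 0.590, 0.477 and 0.725 RPKM, was lowest at 30 min (-0.28) and highest at 60 min (0.28), while H2AC14 had ratios of 0.37 and 0.32. HIST2H2AA3, H3C14 and H3C15 of the HIST2 group were listed at 0 in all 3 libraries, as were their neighbours HIST2H2AA4, HIST2H4A and HIST2H4B.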
